A study of Mus musculus with 15 samples.

Results

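The 9 genes described here mark antibody-secreting plasma cells or carry IgA across the gut epithelium. They are the transcription factors Prdm1, Xbp1 and Pou2af1, the surface proteins Tnfrsf17 and Sdc1, the secretory machinery genes Mzb1 and Derl3, and Jchain and Pigr, which join IgA and transport it. They were taken by gene symbol from a list, out of 17752 genes listed in any mouse, and all 9 were listed in every mouse and passed the filter on low counts that left 14386 genes for testing. RNA was measured in a piece of intestine from 15 female mice, given in the labels as C57BL/6 and 8 weeks old and in the methods as C57BL/6JOlaHsd, with 1 library per mouse. The methods name the ileum, while the labels give intestinal tissue only. The 3 groups of 5 mice were gavaged every 2 days over 10 days, and the control group received water. The low PAC group received proanthocyanidins (PAC, polymers of flavan-3-ols) of low molecular weight from grape at 200 mg/kg, and the high PAC group received grape PAC of high molecular weight at the same dose. The methods describe this last group as the fraction of medium mean degree of polymerization, and the name in the labels is kept here. Both PAC preparations are Sephadex fractions, thus mixtures of polymers, and all mice ate the same purified diet.

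Plasma cells of the gut lie in the lamina propria, beneath the epithelium, and arise from B cells that were activated largely in Peyer's patches, the lymphoid follicles of the ileum. PRDM1 (BLIMP-1) and XBP1 turn a B cell into a secreting cell by closing down B cell genes and expanding the endoplasmic reticulum. IgA leaves the plasma cell as a dimer held together by the J chain, is bound by the polymeric immunoglobulin receptor (the product of Pigr) on the basal side of epithelial cells, and is released into the gut lumen as secretory IgA. Several of the genes are also used elsewhere. Sdc1, Xbp1 and Pigr are expressed by epithelial cells, Prdm1 by T cells, and Pou2af1 and Mzb1 by B cells before they become plasma cells. In RNA from a whole piece of tissue, fewer cells of a type and less RNA per cell cannot be told apart.

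To show what lies before the genes, the promoters were searched on both strands for 6 short motifs, and 4 are printed because they share the letters ACGTG, the core recognised by XBP1 and other leucine zipper or E-box binding factors. RefSeq (GRCm38.p6) gave the 250 bases before the start site of 8 of the 9 genes, Mzb1 being without an entry. The sequences are written 5′ to 3′ on the strand of the gene and end at the last base before the start, with the motif in capitals. The Pou2af1 window is chr9:51213440-51213689 (plus strand), that of Derl3 is chr10:75893148-75893397 (plus strand), that of Jchain is chr5:88527898-88528147 (minus strand) and that of Pigr is chr1:130826434-130826683 (plus strand).
Pou2af1: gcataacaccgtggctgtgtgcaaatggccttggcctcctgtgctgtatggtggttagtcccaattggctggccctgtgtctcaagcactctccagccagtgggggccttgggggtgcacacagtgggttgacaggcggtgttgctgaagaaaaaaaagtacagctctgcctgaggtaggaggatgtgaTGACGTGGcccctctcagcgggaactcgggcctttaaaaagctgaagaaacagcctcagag
Derl3: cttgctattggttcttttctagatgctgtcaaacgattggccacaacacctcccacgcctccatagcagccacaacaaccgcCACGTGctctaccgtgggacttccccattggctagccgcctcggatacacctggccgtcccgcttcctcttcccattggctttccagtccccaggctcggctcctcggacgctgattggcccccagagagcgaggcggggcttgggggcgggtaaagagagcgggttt
Jchain: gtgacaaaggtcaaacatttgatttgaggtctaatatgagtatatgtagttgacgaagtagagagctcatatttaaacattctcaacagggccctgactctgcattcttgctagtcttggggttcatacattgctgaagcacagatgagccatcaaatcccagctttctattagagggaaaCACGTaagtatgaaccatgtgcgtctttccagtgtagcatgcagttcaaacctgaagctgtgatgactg
Pigr: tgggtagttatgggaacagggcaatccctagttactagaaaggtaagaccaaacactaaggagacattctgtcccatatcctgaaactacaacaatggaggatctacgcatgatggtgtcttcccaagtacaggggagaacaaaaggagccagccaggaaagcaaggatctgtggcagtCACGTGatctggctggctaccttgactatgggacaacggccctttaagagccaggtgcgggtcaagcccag

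In Pou2af1 the capitals are TGACGTGG, the unfolded protein response element (UPRE), 61 to 54 bases before the start, and 0.563% of the 32851 RefSeq promoters of the same length hold it. Derl3 and Pigr hold the palindromic E-box CACGTG, 168 to 163 and 71 to 66 bases before the start respectively, as do 6.02% of all promoters. The Jchain window holds ACGTG on the complementary strand, printed as CACGT, 69 to 65 bases before the start. ACGTG is contained in both longer motifs, and 16.6% of all promoters hold it. In Tnfrsf17 the search found a TATA box, TATAAA, 114 to 109 bases before the start (12.4% of all promoters) and the interferon response core GAAANNGAA on the complementary strand (7.13%). The octamer ATGCAAAT, to which the POU factors that work with the Pou2af1 product bind, was in none of the 8 windows and in 1.6% of all promoters. The windows of Prdm1, Xbp1 and Sdc1 held none of the 6 motifs. Those of Prdm1 and Sdc1 precede RefSeq starts that lie inside the longer genes of the GENCODE annotation. A match of letters is a description of the sequence, and no binding was measured here.

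Each library held between 15963086 and 17903886 expected counts, so depth was alike in all groups. Levels are given as FPKM, the fragments of a gene divided by gene length and by library size, and can therefore be compared between genes. Over the 15 mice, mean FPKM was highest for Pigr (706) and Jchain (365), followed by Xbp1 (120) and Sdc1 (48.7). Pou2af1 (10.95), Mzb1 (7.28), Derl3 (4.34), Prdm1 (2.65) and Tnfrsf17 (1.89) came after them. Pigr exceeded 99.4% and Jchain 98.6% of all genes tested, and Tnfrsf17 exceeded 21.3%. The ranges over mice of Xbp1 and Sdc1 overlapped neither each other nor those of their neighbours in this order, whereas Pigr and Jchain overlapped, as did each pair of neighbours from Pou2af1 down to Tnfrsf17. Jchain and Tnfrsf17 were thus detected in each piece of ileum, and all 13 epithelial markers on the list were detected. Among the other plasma cell genes, the 7 immunoglobulin chain genes of the list were not analysed here. Spread over all 15 mice differed between the genes. Xbp1 varied 1.40-fold from the lowest to the highest mouse and Sdc1 1.48-fold, while Mzb1 varied 7.44-fold and Pou2af1 7.78-fold.

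**Figure D1:**
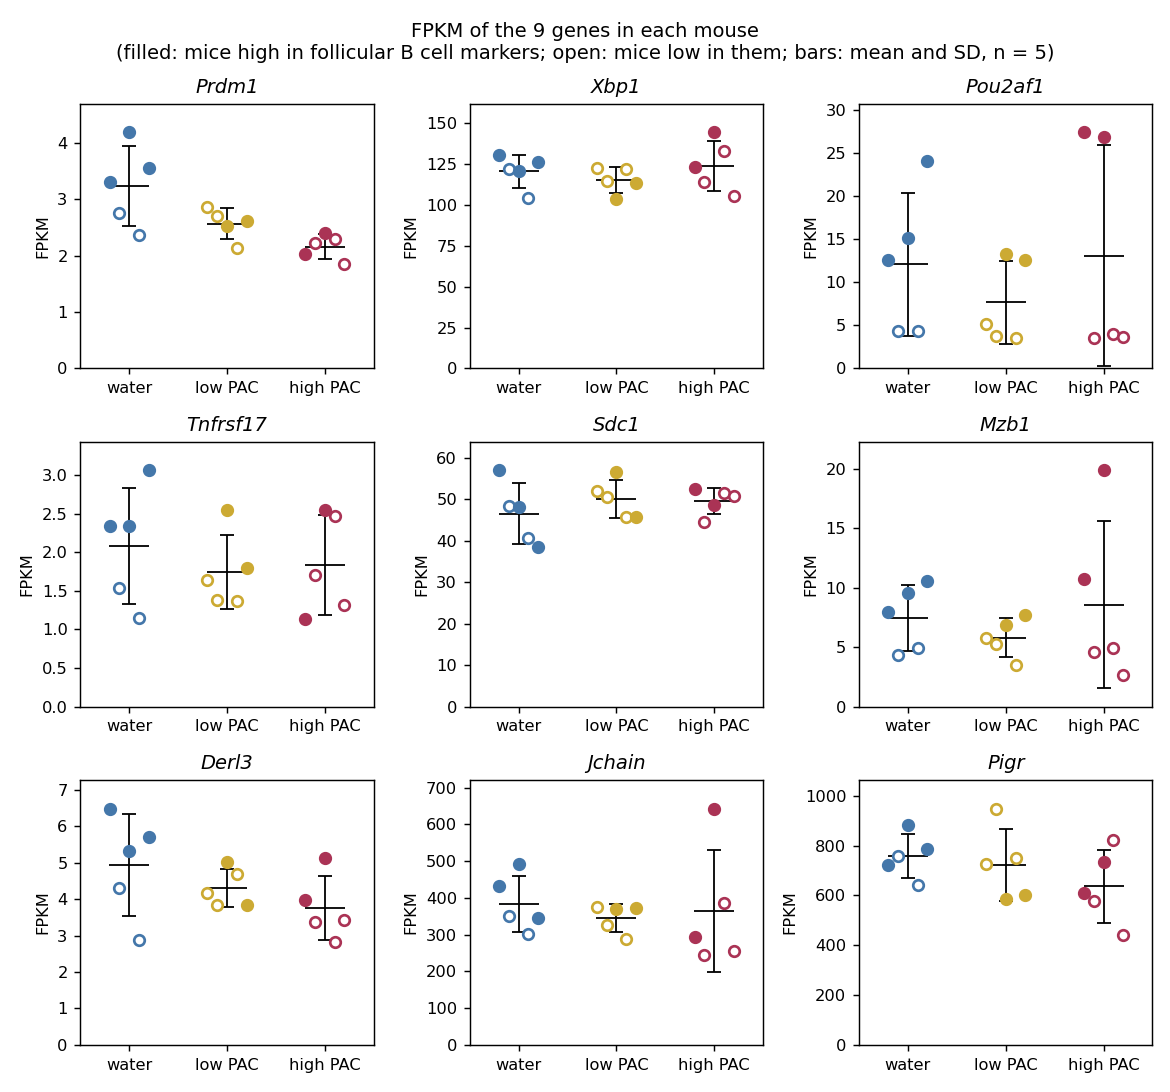
FPKM of the 9 genes (y axes, from 0) in each mouse of the water, low PAC and high PAC groups (x axes), with the mean and SD of 5 mice as black bars; filled points are the 7 mice with high and open points the 8 mice with low follicular B cell markers. Prdm1 lies between 1.85 and 2.40 FPKM in the high PAC mice and between 2.37 and 4.19 in the water mice, and Pou2af1 and Mzb1 split along the filled and open points in each group.

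Against water, no gene of the 9 passed an adjusted p of 0.05 in either PAC group (edgeR quasi-likelihood test, Benjamini-Hochberg over 14386 genes), where the background over all genes was 0.0139% with high PAC and 0% with low PAC. At an unadjusted p under 0.05, Prdm1 and Derl3 passed with high PAC, both lower, beside 14.8% of all genes (10.4% lower), and with low PAC Prdm1 alone passed, also lower, beside 3.61% (2.21% lower). Leaving out single mice left between 1 and 3 of the 9 genes at that level with high PAC, and Derl3 did not pass without water mouse 1 (-0.37) or without high PAC mouse 4 (-0.43). By DESeq2, 1 of the 9 genes, Prdm1, passed the adjusted threshold with high PAC, beside 0.779% of all genes, and 0 with low PAC, beside 0.0139%. By limma-voom 0 passed in either group. At an unadjusted p under 0.05 with high PAC, 3 of the 9 genes passed by DESeq2, beside 2146 of 14386 genes. By limma-voom 3 passed at that level, beside 2269. With low PAC 1 passed by each, beside 501 and 556 genes. With high PAC 7 of the 9 genes had negative and 2 positive log2 fold changes, with a median of -0.18 against a median of 0.0024 over all genes, of which 49.5% were negative. With low PAC 8 were negative and 1 positive, with a median of -0.26 against -0.014 over all genes, of which 54.5% were negative. With a score of 18 follicular B cell markers in each mouse as a covariate, which was added after seeing the data, this median was -0.11. All 9 smooth muscle markers were higher with low PAC than with water (median 0.32, 0 called by edgeR and 0 at an unadjusted p under 0.05), with summed FPKM of 358 to 1180 with water and 738 to 1299.8 with low PAC, and their part in these values was not tested. Both sets of values share the water mice. The high PAC count of negative values was between 5 and 8 under the other normalizations, filters and models, and several of these values lie near 0. By the group means of FPKM, 5 of the 9 were lower and 4 higher with high PAC, on a scale on which the median log2 ratio of all genes was 0.096, and 8 were lower and 1 higher with low PAC, where it was 0.040. None of the 9 genes had groups that did not overlap, which was the case for 4.64% of all genes with high PAC and 0.605% with low PAC.

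**Figure D2:**
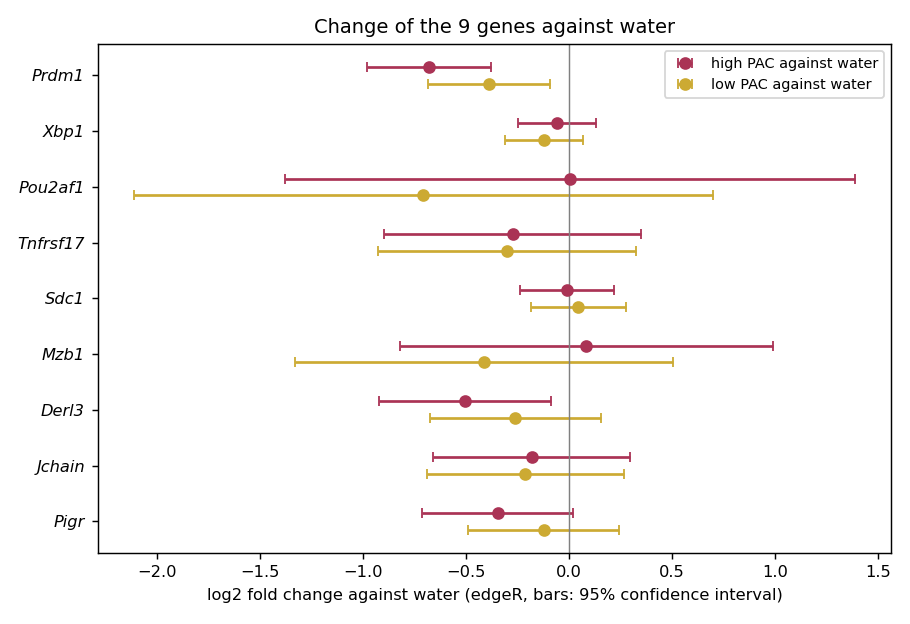
Log2 fold change against water (x axis) of the 9 genes (y axis) with high PAC and low PAC, as points with 95% confidence intervals from edgeR (5 mice per group). The intervals of Prdm1 in both groups and of Derl3 with high PAC lie below 0 before adjustment for the number of genes, and those of Pou2af1 and Mzb1 are the widest.

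Prdm1 encodes the repressor BLIMP-1, which drives the plasma cell programme (gene 12142, chromosome 10, 44437177 to 44528501, minus strand). Its FPKM was 3.31, 2.76, 4.19, 2.37 and 3.56 in the water mice 1 to 5, 2.86, 2.70, 2.52, 2.14 and 2.62 in the low PAC mice and 2.02, 2.23, 2.40, 2.29 and 1.85 in the high PAC mice. Of the high PAC mice, 4 of 5 lay below the lowest water mouse and the other just above it. Of the low PAC mice, 1 of 5 lay below the lowest water mouse and the other 4 within the water range, and the low PAC mice overlapped both other groups. The mean was 3.24 ± 0.707 (SD, n = 5) with water, 2.57 ± 0.270 with low PAC and 2.16 ± 0.221 with high PAC, on 168 to 377 counts per mouse. With high PAC the log2 fold change was -0.68 (95% confidence interval -0.98 to -0.38, standard error 0.14), which did not pass the adjusted threshold in edgeR (unadjusted p = 0.0002, adjusted p = 0.133). Permuting the mice in an exact two-sided test of log2(FPKM + 0.1) gave p = 0.0159, where 0.0079 is the smallest p that 5 against 5 mice allow, and 0.197 after adjustment over all genes tested. DESeq2 gave an adjusted p of 0.0047, and the adjusted p ranged from 0.0047 to 0.306 over the other models, normalizations and filters. Without single mice it lay between 0.0875 and 0.296, with log2 fold changes between -0.78 and -0.56. With low PAC the log2 fold change of Prdm1 was -0.39 (interval -0.69 to -0.09, edgeR unadjusted p = 0.0138, adjusted p = 0.976), and the exact permutation test gave p = 0.0952. Without water replicate 3 it was -0.27 and none of the 9 genes passed at an unadjusted p under 0.05.

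Markers of other cell types are given beside Prdm1. All 9 smooth muscle markers were higher with high PAC than with water (median log2 fold change 0.42, 0 called by edgeR and 0 at an unadjusted p under 0.05), their summed FPKM ranging from 358 to 1180 with water and from 917 to 1416 with high PAC, and the water mice 1 and 3 had the lowest smooth muscle scores of all 15 mice. Of the 13 epithelial markers, 9 were lower with high PAC (median -0.071), 3 of them at an unadjusted p under 0.05 in edgeR beside 10.4% of all genes. With upper-quartile normalization 7 were lower and 6 higher (median -0.004), and by the group means of FPKM 6 were lower and 7 higher. DESeq2 called 1 of the 13, Krt20, lower (log2 fold change -0.40, DESeq2 adjusted p = 0.0423), beside 0.779% of all genes. Their summed FPKM ranged from 8677 to 10422 with water and from 8904 to 10310 with high PAC. Of the 14 T cell markers 10 were lower (median -0.17, 0 at an unadjusted p under 0.05), with a summed FPKM of 28.6 to 73.3 with water and 24.2 to 88.8 with high PAC. With low PAC all 14 were lower than with water (median -0.45, 0 called by edgeR and 0 at an unadjusted p under 0.05). Over the 15 mice with group means subtracted, Prdm1 had r = -0.47 with the smooth muscle score (permutation p = 0.273, adjusted p = 0.725). With group means kept this r was -0.63. With the epithelial score r was 0.09 (permutation p = 0.785, adjusted p = 0.910). Beyond these relations and those with the T cell score given below, the part of these markers in the Prdm1 values was not tested.

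Xbp1 encodes the transcription factor of the unfolded protein response that enlarges the secretory apparatus (gene 22433, chromosome 11, 5520659 to 5525893, plus strand). In the water mice its FPKM ranged from 104 to 130 with a mean of 121 ± 10.03 (SD, n = 5), in the low PAC mice from 103 to 123 (115 ± 7.83) and in the high PAC mice from 106 to 145 (124 ± 15.4). The 3 groups overlapped and the differences were within the spread between mice, with log2 fold changes of -0.06 (interval -0.25 to 0.13) with high PAC and -0.12 (interval -0.31 to 0.07) with low PAC. The value with high PAC turned to 0.01 with upper-quartile normalization. These are gene totals, and the spliced form of Xbp1 mRNA, which encodes the active factor, was not analysed here.

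Pou2af1 encodes the B cell coactivator OBF-1 (gene 18985, chromosome 9, 51213708 to 51240080, plus strand). It had FPKM of 12.6, 4.34, 15.2, 4.29 and 24.1 in the water mice, 5.17, 3.81, 13.3, 3.53 and 12.5 in the low PAC mice and 27.4, 3.55, 26.8, 4.05 and 3.59 in the high PAC mice. Each group thus held both mice between 3.53 and 5.17 FPKM and mice between 12.5 and 27.4 FPKM, with no mouse in the gap. The log2 fold change with high PAC was 0.00 with an interval of -1.38 to 1.39, and single mice moved it between -0.45 and 0.38. With low PAC it was -0.71 (interval -2.11 to 0.70), between -1.004 without low PAC mouse 3 and -0.34 without water mouse 5. Changes within these intervals are not excluded by this fit. A fit with the follicular B cell score as a covariate, given below, had a smaller standard error of 0.11.

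Tnfrsf17 encodes BCMA, the receptor through which plasma cells receive survival signals from APRIL and BAFF (gene 21935, chromosome 16, 11313812 to 11320074, plus strand). The FPKM was 2.34, 1.53, 2.34, 1.15 and 3.06 with water, 1.64, 1.38, 2.54, 1.37 and 1.80 with low PAC and 1.14, 1.71, 2.55, 2.47 and 1.31 with high PAC. These values rest on 14 to 39 counts per mouse, the fewest of the 9 genes, and the groups overlapped over most of their ranges. The log2 fold changes were -0.27 (interval -0.90 to 0.35) with high PAC and -0.30 (interval -0.93 to 0.32) with low PAC. Leaving out single mice gave -0.43 (without water mouse 4) to -0.12 (without water mouse 5) with high PAC and -0.48 (without low PAC mouse 3) to -0.15 (without water mouse 5) with low PAC. Sdc1 encodes syndecan-1, or CD138, a heparan sulfate proteoglycan of plasma cells and of epithelium (gene 20969, chromosome 12, 8771323 to 8793715, plus strand). In the water mice its FPKM ranged from 38.6 to 56.9 (46.5 ± 7.27, SD, n = 5), in the low PAC mice from 45.6 to 56.4 (50.03 ± 4.53) and in the high PAC mice from 44.5 to 52.5 (49.5 ± 3.15). The log2 fold changes of Sdc1 were -0.01 (interval -0.24 to 0.22) and 0.05 (interval -0.18 to 0.27) with high and low PAC, and the sign of the former changed with the normalization.

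Mzb1 encodes an endoplasmic reticulum chaperone that assists antibody assembly and secretion (gene 69816, chromosome 18, 35647267 to 35649367, minus strand). Its exons overlap those of Spata24 on the same strand, so that reads could have been split between them. The FPKM of Mzb1 was 7.94, 4.38, 9.57, 4.89 and 10.6 with water, 5.73, 5.23, 6.85, 3.48 and 7.74 with low PAC and 10.8, 4.56, 19.9, 4.91 and 2.67 with high PAC. The high PAC group held both the lowest and the highest mouse. Its log2 fold change was 0.08 (interval -0.82 to 0.99) with high PAC, and without high PAC replicate 3, the highest mouse, it was -0.45. With low PAC it was -0.41 (interval -1.33 to 0.50).

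Derl3 encodes derlin-3, a membrane protein that helps to remove misfolded proteins from the endoplasmic reticulum (gene 70377, chromosome 10, 75893413 to 75895941, plus strand). Its FPKM was 6.49, 4.30, 5.32, 2.89 and 5.72 with water, 4.18, 3.84, 5.03, 4.68 and 3.85 with low PAC and 3.99, 3.38, 5.13, 2.83 and 3.43 with high PAC. The high PAC mice lay below 3 of the water mice in all cases, while 1 of 5 lay below the lowest water mouse. The log2 fold change with high PAC was -0.51 (interval -0.92 to -0.09, standard error 0.20), with an unadjusted p of 0.0206 and an adjusted p of 0.273 in edgeR, and the exact permutation test gave p = 0.167. With low PAC it was -0.26 (interval -0.68 to 0.15).

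Jchain encodes the joining chain of IgA dimers and IgM pentamers (gene 16069, chromosome 5, 88519809 to 88527891, minus strand). The FPKM was 431, 351, 493, 303 and 345 with water, 375, 326, 371, 289 and 372 with low PAC and 293, 244, 643, 387 and 256 with high PAC. With high PAC 3 of 5 mice lay below the lowest water mouse and 1, replicate 3, above the highest. The means were 385 ± 76.2 (SD, n = 5), 346 ± 38.1 and 365 ± 166, on 8701 to 22520 counts per mouse. The log2 fold change with high PAC was -0.18 (interval -0.66 to 0.30), and it lay between -0.44 without high PAC replicate 3 and -0.07 without water replicate 3, with edgeR adjusted p of 0.370 and 0.929 respectively. With low PAC it was -0.21 (interval -0.69 to 0.27).

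Pigr encodes the epithelial receptor that carries polymeric IgA to the lumen (gene 18703, chromosome 1, 130826684 to 130852249, plus strand). The FPKM was 723, 758, 882, 641 and 788 with water, 728, 949, 585, 748 and 602 with low PAC and 608, 579, 734, 821 and 440 with high PAC. With high PAC 3 of 5 mice lay below the lowest water mouse, and with low PAC 2 of 5 lay below it and 1 above the highest. The mean was 758 ± 88.2 (SD, n = 5) with water, 722 ± 146 with low PAC and 637 ± 147 with high PAC, and the groups overlapped. With high PAC the log2 fold change was -0.35 (interval -0.71 to 0.02). EdgeR gave an unadjusted p of 0.0619 and an adjusted p of 0.362, and the exact permutation p was 0.151. By DESeq2 the unadjusted p was 0.0466 and the adjusted p 0.329. With low PAC the log2 fold change was -0.12 (interval -0.49 to 0.24). Pigr was above Jchain in each of the 15 mice.

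The 2 PAC preparations, which differ in molecular weight, were given at the same dose and times and were compared directly as 1 pair. No gene of the 9 passed the adjusted threshold in edgeR, where the background was 0% of all genes, and 0 passed at an unadjusted p under 0.05, beside 3.89% of all genes. Prdm1, lower with high PAC, was the 1 gene of the 9 below that unadjusted level with DESeq2, with RLE size factors, in the 2 groups alone, with the B cell covariate and in 4 of the 15 fits that left out a mouse. DESeq2, with 0% of all genes, and limma-voom called 0 as well. Relative to low PAC, 5 genes had positive and 4 negative log2 fold changes with high PAC, with a median of 0.03. With the B cell covariate 2 were positive and 7 negative (median -0.057), with limma-voom 3 and 6 (median -0.053), and with the replicate block 4 and 5 (median -0.045). Higher with high PAC were all 18 follicular B cell markers (median 1.20) and 13 of 14 T cell markers (median 0.39), with 0 called by edgeR. Their part beyond that covariate was not tested. No gene of the 9 had groups that did not overlap (0.737% of all genes). The log2 fold change of Prdm1 was -0.29 (interval -0.59 to 0.01, adjusted p = 0.896 in edgeR), and the exact permutation test gave p = 0.0397, or 0.946 after adjustment over all genes. The intervals were narrowest for Xbp1 (-0.12 to 0.25) and Sdc1 (-0.28 to 0.17). For Pou2af1 the interval was -0.69 to 2.12 and for Mzb1 -0.42 to 1.41, so that sizeable differences are not excluded by this fit. With the B cell covariate the log2 fold changes were -0.0098 (standard error 0.11) for Pou2af1 and 0.098 (standard error 0.23) for Mzb1. Jchain (-0.45 to 0.51), Pigr (-0.59 to 0.14), Derl3 (-0.66 to 0.17) and Tnfrsf17 (-0.60 to 0.66) lay between these extremes.

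The mice fell into 2 separate sets by 18 follicular B cell markers, and 2 of the 9 genes, Pou2af1 and Mzb1, split with them, beside 2.8% of all genes. The score, the mean of the centred log2(FPKM + 0.1) of the markers, left a gap of 52.9% of its range between 7 mice with high and 8 with low values. The 7 were the water mice 1, 3 and 5, the low PAC mice 3 and 5 and the high PAC mice 1 and 3. The summed FPKM of the markers was 20.5 to 25.9 in the 8 mice and 89.2 to 268 in the 7. Ms4a1 (CD20) was at 0.13 to 0.66 FPKM in the former and 9.38 to 44.6 in the latter, and Cr2 was at 0 to 0.15 and 2.39 to 9.10. These sets were defined from the data and are described without a test.

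Pou2af1 was at 3.53 to 5.17 FPKM in the 8 mice low in B cell markers and at 12.5 to 27.4 in the 7 high ones, and Mzb1 was at 2.67 to 5.73 and 6.85 to 19.9. The other 7 genes overlapped between the sets. Jchain had a median of 314 in the low and 372 in the high set, Tnfrsf17 1.46 and 2.34, Derl3 3.63 and 5.13, Prdm1 2.33 and 2.62, Pigr 738 and 723, Xbp1 118 and 123 and Sdc1 49.4 and 48.6. Within both of these sets, which hold 2 or 3 mice per group and were defined after seeing the data, Prdm1 alone of the 9 was lower in the high PAC than in the water mice without overlap, as were 1.4% of all genes. It was at 1.85 to 2.29 in 3 high PAC and 2.37 to 2.76 in 2 water mice of the low set, and at 2.02 to 2.40 in 2 high PAC and 3.31 to 4.19 in 3 water mice of the high set. In the low PAC mice it was at 2.14 to 2.86 in 3 mice of the low set, overlapping the water mice, and at 2.52 to 2.62 in 2 of the high set, below them. With the B cell score as a covariate, the log2 fold change of Prdm1 with high PAC was -0.65 (standard error 0.13, edgeR adjusted p = 0.0808) and that of Derl3 -0.46 (adjusted p = 0.194). For Pou2af1 the standard error fell from 0.65 to 0.11 with this covariate, with a log2 fold change of -0.11 with high PAC and -0.10 with low PAC, and for Mzb1 from 0.43 to 0.22, with 0.04 and -0.06. Neither gene passed the adjusted threshold in that fit.

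**Figure D3:**
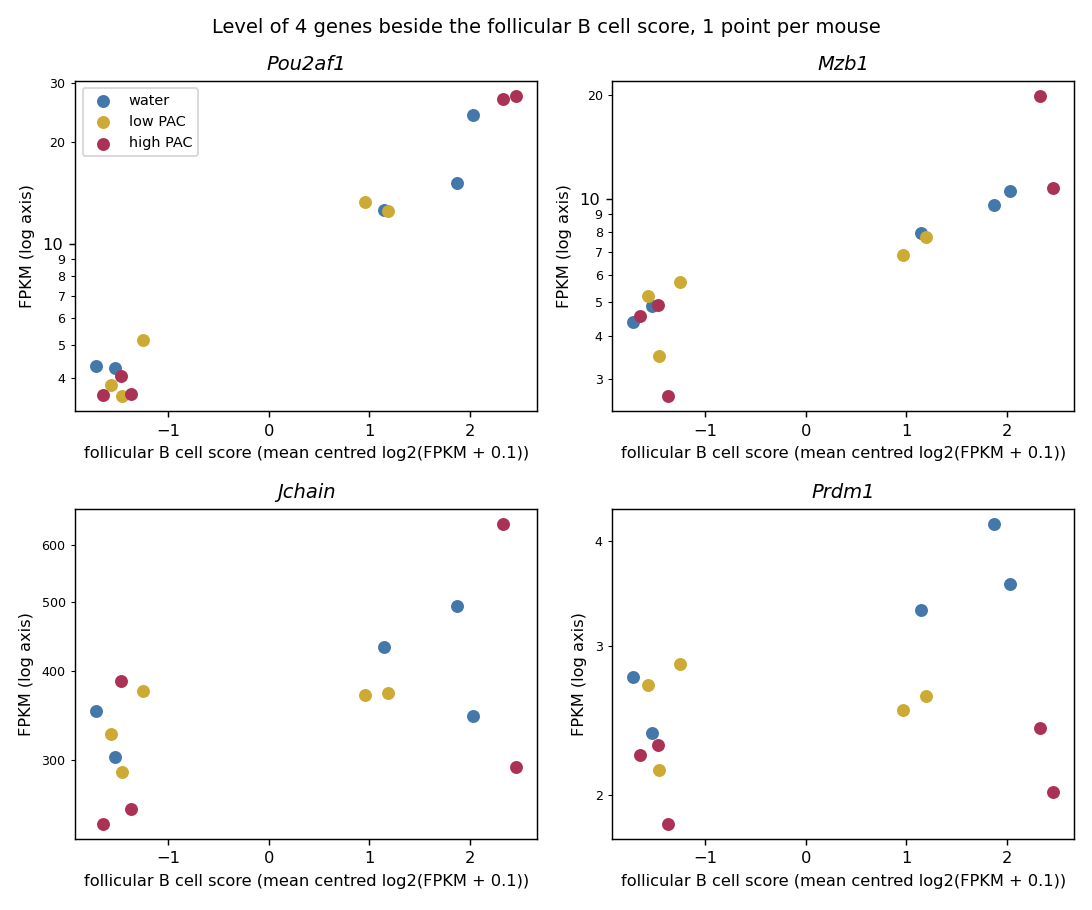
FPKM of Pou2af1, Mzb1, Jchain and Prdm1 (y axes, log scale) against the follicular B cell score of each mouse (x axes), 1 point per mouse, coloured by group. The 7 mice on the right have Pou2af1 of 12.5 to 27.4 and Mzb1 of 6.85 to 19.9 FPKM, above all 8 mice on the left, whereas Jchain and Prdm1 overlap between the sides and Prdm1 is lower in the 2 or 3 high PAC mice than in the 2 or 3 water mice on either side, as for 1.4% of all genes.

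The genes were also compared with each other and with marker scores over mice, after the group means were subtracted from log2(FPKM + 0.1). For Pou2af1, Mzb1, the B cell score and the T cell score, which all split the mice in the same way, this was done within the 2 sets only. Of 131 relations, 13 had an unadjusted permutation p under 0.05 and 0 an adjusted one. Xbp1 and Pigr, both abundant in epithelium, varied together (r = 0.71, permutation p = 0.0096, rho = 0.67, p = 0.017, adjusted p = 0.306 and 0.403), and r was 0.58 when the 2 mice farthest from the Xbp1 median were left out. Xbp1 and Jchain had r = 0.68 (permutation p = 0.0262, rho = 0.66, p = 0.0252, adjusted p = 0.381 and 0.403), which was 0.41 without the 2 farthest mice and so rests partly on them. Prdm1 and Jchain had r = 0.61 (permutation p = 0.0052, rho = 0.67, p = 0.0113, adjusted p = 0.306 and 0.403) and 0.54 without the 2 farthest mice. Prdm1 and Tnfrsf17 had r = 0.71 (permutation p = 0.0102, rho = 0.71, p = 0.0109, adjusted p = 0.306 and 0.403) and 0.66 without them. The smooth muscle score ran against both Jchain and Xbp1. For Jchain r was -0.54 (permutation p = 0.014, rho = -0.61, p = 0.0243, adjusted p = 0.306 and 0.403), and -0.35 without the 2 farthest mice. For Xbp1 r was -0.48 (permutation p = 0.0477, rho = -0.55, p = 0.0277, adjusted p = 0.481 and 0.403), and -0.45 without them. The other 7 relations under 0.05 included those of Prdm1 with Pigr, of Tnfrsf17 with Jchain and of Xbp1 with the unfolded protein response score over all mice. The rest were each within 1 set only. In the 8 mice low in B cell markers, Pou2af1 had r = 0.53 with Tnfrsf17 and 0.70 with Jchain. In the 7 high ones these r were 0.33 and -0.36, not under 0.05. The T cell score had r = 0.95 with Prdm1 and 0.90 with Pigr in the 7 mice. In the 8 mice these r were 0.11 and 0.58, not under 0.05. None of the relations held after adjustment over the 131. The smallest permutation p possible was 0.0139 within the 8 mice and 0.0417 within the 7, so that relations within the sets could hardly pass it.

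Among 12153 other genes whose FPKM averaged 1 or more, those most like each gene over the 15 mice, by Pearson r of log2(FPKM + 0.1) and as a description only, were the following. Pou2af1 was most like Ripor2, Cxcl13 and Cd79b (r = 0.99 for each), and Mzb1 most like Vav1 (0.96), Plek (0.95) and Slfn2 (0.95), values that include the split of the mice. Within the 8 mice low in B cell markers, r of Pou2af1 was 0.49 with Ripor2, 0.80 with Cxcl13 and 0.50 with Cd79b, and within the 7 high ones 0.99, 0.92 and 0.95. Prdm1 was most like Nt5e (0.83), Itgae (0.79), the integrin of intraepithelial lymphocytes, and Msr1 (0.78). Pigr was most like Duoxa2 (0.86), Atp10b (0.86) and Duox2 (0.84), of which Duox2 and Duoxa2 form the hydrogen peroxide producing oxidase of the epithelium. Jchain was most like Adipor1 (0.87), Pla2g7 (0.85) and Katna1 (0.84), and Derl3 most like Hs3st3b1 (0.83), Adam8 (0.81) and Clec9a (0.81). Xbp1 was most like Ppp6c (0.86), Golga7 (0.86) and Fbxw7 (0.85), Sdc1 most like Lpcat4 (0.88), Nkain1 (0.87) and Wdcp (0.87), and Tnfrsf17 most like Ier5 (0.76), Myd88 (0.75) and Insl3 (0.74). All genes of a mouse share its library and its mixture of cells.

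Around the 9 genes, 4 lists of the same pathways were read from the same test, and 0 genes of any list passed the adjusted threshold in edgeR in any of the 3 comparisons. DESeq2 called 2 genes of these lists, Edem1 and Runx2, both lower with high PAC than with water, beside 0.779% of all genes, and limma-voom called 0. Of 26 other plasma cell genes tested, 19 were lower and 7 higher with high PAC than with water, with a median log2 fold change of -0.19 beside 0.0024 over all genes. At an unadjusted p under 0.05, 4 were lower and 1 higher, beside 14.8% of all genes. Edem1, which directs misfolded glycoproteins to degradation, was at 40.03 ± 2.42 FPKM (SD, n = 5) with water and 35.3 ± 1.45 with high PAC, with a log2 fold change of -0.28 and an adjusted p of 0.190 in edgeR and 0.0407 in DESeq2. The most abundant genes of this list, Hsp90b1, Txndc5, Sec11c and Cd38, had log2 fold changes between -0.08 and 0.19. This list also holds Cd79a, Cd79b and Irf4, which split with the B cell markers. With low PAC, 21 of the 26 genes were lower and 5 higher (median -0.13), and 19 and 7 with the B cell score as a covariate (median -0.070). All 18 follicular B cell markers (median -1.12) and all 14 T cell markers (median -0.45) were also lower with low PAC than with water, with 0 called by edgeR and 0 at an unadjusted p under 0.05, and their part in the values of these lists beyond that covariate was not tested.

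Of 37 genes of the unfolded protein response and endoplasmic reticulum quality control, 30 were lower and 7 higher in each PAC group against water, with medians of -0.067 with high PAC and -0.048 with low PAC. With high PAC 7 of the 37 were lower at an unadjusted p under 0.05 and 0 higher, beside 10.4% of all genes lower. With RLE size factors 25 were lower and 12 higher with high PAC, and 28 lower and 9 higher with low PAC. By the group means of FPKM, without a model, 14 of the 37 were lower and 23 higher with high PAC, and 17 lower and 20 higher with low PAC, on a scale on which 30.8% and 35.4% of all genes were lower. On that scale, 13 of the 27 Pigr inducers and transport genes and 12 of the 28 IgA induction genes described next were lower with high PAC, against 14 and 16 higher. P4hb, a protein disulfide isomerase, was at 535 ± 30.7 FPKM (SD, n = 5) with water and 496 ± 32.3 with high PAC (log2 fold change -0.20, edgeR adjusted p = 0.272). The chaperones Hspa5 (-0.14), Pdia3 (-0.02) and Calr (-0.08) had smaller log2 fold changes with high PAC. Of 28 genes of IgA induction and of plasma cell survival and homing, 18 were lower and 10 higher with high PAC (median -0.058), and 24 lower and 4 higher with low PAC (median -0.23), or 19 lower and 9 higher with the B cell score as a covariate (median -0.054). Ccl25, the chemokine that draws IgA plasma cells to the small intestine, had a mean FPKM of 457 ± 32.9 in the water mice (SD, n = 5), of 454 ± 19.1 in the low PAC mice and of 496 ± 42.8 in the high PAC mice. Runx2, a factor in switching to IgA, was at 1.88 ± 0.280 FPKM (SD, n = 5) with water and 1.41 ± 0.194 with high PAC, with a log2 fold change of -0.50 and an adjusted p of 0.180 in edgeR and 0.0449 in DESeq2. Tgfbr2 (0.00), Cxcl12 (0.03) and Ltbr (-0.03) had log2 fold changes near 0 with high PAC. Of 27 genes that induce Pigr or serve epithelial transport, 20 were lower and 7 higher with high PAC (median -0.083), 5 of them lower at an unadjusted p under 0.05 beside 10.4% of all genes, and 21 lower and 6 higher with low PAC (median -0.097). Ifngr2, a chain of the receptor for interferon gamma, which induces Pigr, was at 133 ± 7.46 FPKM (SD, n = 5) with water and 122 ± 7.76 with high PAC (log2 fold change -0.22, edgeR adjusted p = 0.216). Ifngr1 (-0.12), Il17rc (-0.08) and Rab25 (0.11) had smaller changes. With upper-quartile normalization, which set the median of all genes with high PAC to 0.066, 20 of the 37 unfolded protein response genes were lower (median -0.004), as were 12 of the 28 IgA induction genes (median 0.011), 16 of the 27 Pigr inducers (median -0.022) and 17 of the 26 other plasma cell genes (median -0.12).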

How the data were processed

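Total RNA of 15 pieces of mouse ileum was sequenced by the study on a BGISEQ-500 as paired-end reads. The methods name SOAPnuke for filtering and Bowtie2 for mapping to mm10, whereas the submitters' processing notes name HISAT, DESeq2 and mm10. The counting tool, its strand setting and its treatment of shared reads are not given in the sources used here. For each mouse the authors deposited an expected count per gene, which is an estimated number of fragments and not normalized (88.6% to 89.5% whole numbers). The FPKM values were computed by the authors from length and library size and deposited with a minimum of 0.01, below which genes were not listed and were set to 0 here.

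After rounding, the expected counts entered a test in edgeR 4.0.16 under R 4.3.3 (TMM, filter on low counts by group, quasi-likelihood fit without the robust option, 1 model of all 15 mice), and p-values were adjusted by Benjamini-Hochberg over 14386 genes. Standard errors were taken from the test statistic. An exact permutation test, two-sided and over all 252 splits of the mice of a pair of groups, was applied to log2(FPKM + 0.1) (scipy 1.17.1). Relations over mice were permuted within groups, 100000 times or exactly in sets of 7 and 8 mice. Self-tests of the scripts used simulated data. Alternatives were other size factors, no filter, DESeq2 1.42.0 without independent filtering, limma-voom (limma 3.58.1), a robust fit, the 2 compared groups alone, the mouse number as a block, pseudocounts of 0.01 and 1, and each mouse left out. A fit with the follicular B cell score and directions by group mean FPKM were added after seeing the data. The 9 genes, the gene lists and the tests were chosen with earlier results of these data known. Named genes are the 9 genes, the 4 most abundant genes of each pathway list and any called gene, and the 3 genes most like each of the 9. Edem1, Runx2 and Krt20, called by DESeq2 alone, the B cell markers Ms4a1 and Cr2, and Cd79a and Irf4 were named in addition after their values were seen. Marker lists served to describe the mixture of cells. Labels give 1 mouse per sample, and the p-values of the group comparisons set differences between groups against the spread between these mice. Gene coordinates are from GENCODE (GRCm38) and promoter sequences from RefSeq (GRCm38.p6).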

Additional observations from a re-analysis of the deposited data

How the results depend on the processing

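The count of the 9 genes with an adjusted p under 0.05 was 0 in each comparison under every alternative run, except that DESeq2 called 1, Prdm1, with high PAC against water. That log2 fold change was -0.66 in DESeq2 and negative under every alternative. The mouse numbers are shared between groups. With high PAC against water, same-numbered mice 1 to 5 deviated together with r of 0.11, 0.32, 0.45, 0.08 and -0.22. Mean r with the other numbers was -0.016, -0.088, -0.11, -0.026 and 0.048. With low PAC against water r was -0.27, 0.39, 0.056, 0.066 and 0.38, beside 0.062, -0.10, -0.0036, -0.025 and -0.087. With high against low PAC r was -0.30, -0.077, 0.065, 0.0035 and -0.31. What same-numbered mice share is not given in the labels and was not tested. With the replicate block, 0 of the 9 genes passed in each comparison, and 2, 1 and 0 did at an unadjusted p under 0.05, as without it.

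Some values turned in sign. With high PAC against water, Xbp1 was 0.0066 with upper-quartile normalization. Pou2af1 was -0.33 with limma-voom, -0.11 with the replicate block and -0.11 with the B cell score, and lay between -0.45 and 0.38 without single mice. Sdc1 was 0.015 with RLE size factors and with DESeq2, 0.056 with upper-quartile normalization, 0.025 without the filter, 0.0048 with limma-voom and 0.0065 with the replicate block, and lay between -0.086 and 0.086 without single mice. Mzb1 was -0.19 with limma-voom and -0.046 with the replicate block, and lay between -0.45 and 0.31 without single mice. With low PAC against water, Sdc1 lay between -0.029 and 0.14 without single mice. With high against low PAC, Pou2af1 was -0.0098 with the B cell score, against 0.71 without it, Tnfrsf17 was -0.014 with limma-voom and -0.014 with the B cell score, and Jchain was -0.059, -0.045 and -0.057 with limma-voom, the replicate block and the B cell score. Without single mice, Tnfrsf17 lay between -0.11 and 0.21, Mzb1, at 0.50 with all mice, between -0.058 and 0.73 and Jchain between -0.25 and 0.14. The relation of Prdm1 to the T cell score in the 7 mice high in B cell markers was r = -0.12 where group means were kept, against 0.95. The causes were not tested.

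Of 216 values of the 9 genes under alternatives in each comparison, 191, 214 and 201 kept their direction and side of the threshold with high PAC against water, low PAC against water and high against low PAC. Counts per mouse were low for Tnfrsf17 (14 to 39), Mzb1 (40 to 289) and Derl3 (63 to 143), and the shares of counting error and of differences between mice in their spread were not separated. The direction of the 9 genes by group means of FPKM was added after seeing the data.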

Other observations

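Markers of germinal centre B cells, the activated B cells from which IgA plasma cells arise, were described beside the 9 genes. Of 10 such markers tested, 8 were higher and 2 lower with high PAC than with water (median log2 fold change 0.29), and 2 were higher and 8 lower with low PAC (median -0.27), with 0 called by edgeR in either comparison. With the follicular B cell score as a covariate, 7 were higher and 3 lower with low PAC (median 0.019), and with limma-voom 6 were higher and 4 lower with high PAC (median 0.076). The summed FPKM of these markers ranged from 28.1 to 47.0 with water, from 26.9 to 40.5 with low PAC and from 25.4 to 67.1 with high PAC.

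Highest and lowest mice of the 27 combinations of gene and group were checked by Dixon's ratio, and 0 exceeded the critical value of 0.71 for 5 mice. Markers of macrophages and other myeloid cells were lower in 8 and higher in 2 of 10 genes with high PAC (median -0.13), but lower in 6 and higher in 4 with upper-quartile normalization (median -0.061), and those of Paneth and goblet cells were higher in 12 and lower in 7 of 19 (median 0.11), with 0 called by edgeR in both lists. Of 7 distal ileum markers, 5 were lower and 2 higher with high PAC (median -0.046), but 3 lower and 4 higher with upper-quartile normalization (median 0.021), with summed FPKM of 5297 to 8606 with water and 7845 to 11874 with high PAC. DESeq2 called 0 genes of these lists and limma-voom 0.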
